A study of Mus musculus with 10 samples.

Results

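The secreted inflammatory signals examined here were 10 genes chosen by name, the chemokines Ccl2, Ccl5, Ccl7, Cxcl1, Cxcl5, Cxcl10 and Cxcl12 and the muscle-derived cytokines Il6, Lif and Il15, out of 23417 genes listed in each Huwe1 table and 23431 in the USP10 table. All 10 were found in all 4 tables. The cells were C2C12, a mouse myoblast line that proliferates in DMEM with 10% FBS and fuses into myotubes in DMEM with 2% horse serum. Directional mRNA-seq was made from 10 libraries in all. On day 0, in growth medium, 1 wild type library was set against 2 Huwe1 knockdown libraries, each carrying its own shRNA, and the same arrangement was repeated after 6 days of differentiation. After 8 days, 1 library of myotubes that carried a non-targeting RNA, per its label, was set against 2 libraries of Huwe1 knockdown myotubes. Per the methods of the study, myotubes received lentivirus on day 4 of differentiation for 2 days, then puromycin for 2 days. The knockdown of days 0 and 6 was instead made in myoblasts, also with lentivirus and puromycin. Days 0, 6 and 8 therefore do not form 1 time course of knockdown. The hairpin sequences labelled on day 8 are those in the methods of the study, and those labelled on days 0 and 6 are others. The last group was 1 library of a stable C2C12 line carrying USP10 cDNA under the EF1a promoter, taken on day 6. The question put to these libraries was what happens to the muscle programme when Huwe1, a ubiquitin ligase, is reduced or when USP10, a deubiquitinase, is increased.

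The value of each gene is FPKM, fragments scaled to transcript length and to the mapped fragments of the library, with 1 value per condition, so that both knockdown libraries are pooled in 1 column. No difference reported here has a replicate check, and no test across conditions could be made. The tables were normalized separately, and levels from different tables are placed side by side as descriptions. The lowest FPKM steps gave an estimate of 18100000 to 30400000 fragments for the controls of the 3 Huwe1 tables, 27900000 for the USP10 library and 7820000 for the control of the USP10 table, while pooled columns gave no estimate. Huwe1 itself was at 38.3 FPKM in control cells and 15.2 in the knockdown on day 0, at 35.1 and 21.9 on day 6, and at 55.4 and 33.0 on day 8. Usp10 was at 10.3 FPKM in the control and 38.3 in the overexpressing line, and on day 6 it was also at 13.2 in the control and 35.4 in the Huwe1 knockdown.

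Chemokines are small secreted proteins that attract leukocytes and other motile cells along a gradient, and the position of their first cysteines divides them into CC and CXC families. Ccl2, Ccl5 and Ccl7 attract monocytes and T cells, Cxcl1 and Cxcl5 attract neutrophils, Cxcl10 is induced by interferon and attracts activated T cells, and Cxcl12 holds and guides cells that bear Cxcr4. Many of these genes are switched on through the transcription factor NF-kB. Il6 and Lif signal through the shared receptor subunit gp130, Il15 through the common gamma chain, and all 3 are known as myokines, signals that muscle cells release.

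Summed over the 10 genes, the level was 34.0 FPKM in the day 0 control and 68.6 in the day 0 knockdown. On day 6 the sum was 8.94 FPKM in the control and 207.4 in the Huwe1 knockdown, and on day 8 it was 8.98 in the control and 53.0 in the knockdown. In the USP10 table it was 45.1 FPKM in the control and 225.2 in the overexpressing line. Every treated column was thus above its own control, and Cxcl12 was the highest of the 10 genes in both treated columns of day 6 and in the day 8 knockdown, with 49.1%, 43.3% and 54.9% of the sum.

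**Figure D1:**
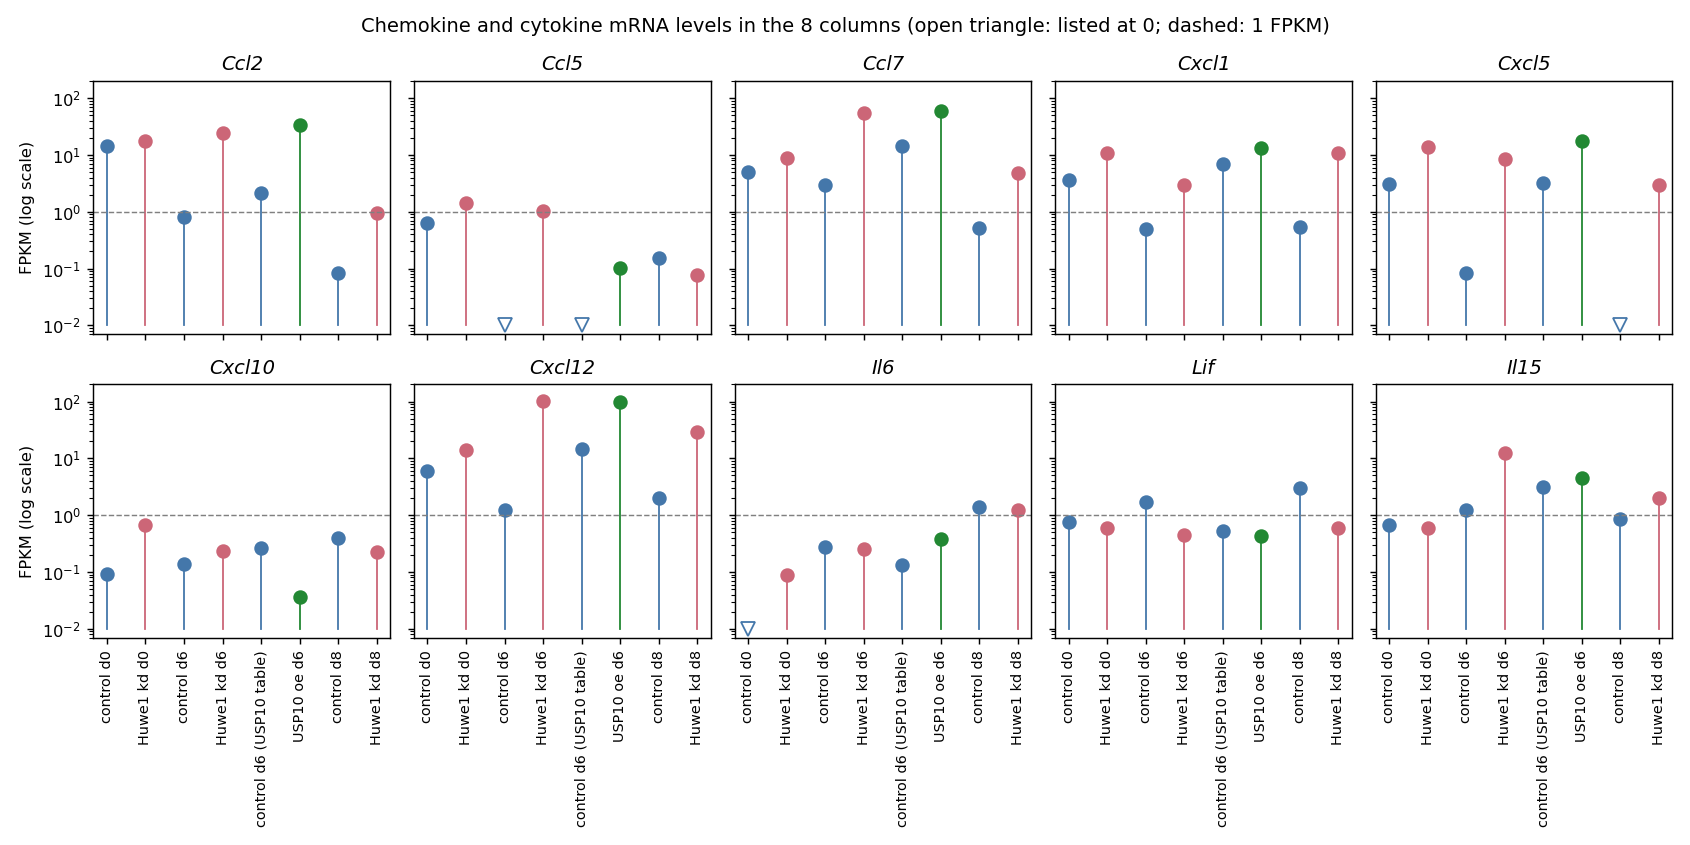
FPKM on a log scale of each of the 10 genes in the 8 columns, with controls in blue, Huwe1 knockdown in red and USP10 overexpression in green. Each point is the single value of a column, open triangles are genes listed at 0, and the dashed line is 1 FPKM. Ccl2, Ccl7 and Cxcl12 had their highest values in both treated columns of day 6, while Cxcl10 stayed under 1 FPKM in all 8.

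Genes that reached 1 FPKM in either column of a table were kept, and a gene was counted where its ratio of treated to control, with 0.01 FPKM added to both values, was at least 2-fold. On day 6 the knockdown was at least 2-fold higher for 7 of the 10 genes (Ccl2, Ccl5, Ccl7, Cxcl1, Cxcl5, Cxcl12 and Il15) and at least 2-fold lower for 1, Lif. Over the 11695 genes kept, 17.6% were at least 2-fold higher and 13.4% at least 2-fold lower. Of these 7 genes, Ccl2, Ccl5, Cxcl1 and Cxcl5 passed the minimum through the knockdown column alone, which favours a count as higher. Lif passed it through the control column alone, which favours a count as lower. The 3 members that reached 1 FPKM on both sides, Ccl7, Cxcl12 and Il15, were all at least 2-fold higher and 0 were lower, beside 12.5% and 10.7% of the 10292 genes with the same property.

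On day 0 the knockdown was at least 2-fold higher for 4 of the 10 genes (Ccl5, Cxcl1, Cxcl5 and Cxcl12) and lower for 0, beside 1.9% and 1.69% of the 10874 genes kept. Of the 5 members that reached 1 FPKM on both sides, 3 were at least 2-fold higher and 0 lower, beside 0.871% and 1.01% of 10447 genes. On day 8 it was at least 2-fold higher for 5 of the 10 (Ccl7, Cxcl1, Cxcl5, Cxcl12 and Il15) and lower for 1, Lif, beside 7.89% and 10% of the 11755 genes kept. Only Cxcl12 and Il6 reached 1 FPKM in both columns of day 8, and of these Cxcl12 was at least 2-fold higher and neither was lower, beside 5.07% and 7.3% of 10728 genes. With USP10 overexpression, 4 of the 10 (Ccl2, Ccl7, Cxcl5 and Cxcl12) were at least 2-fold higher and 0 lower, beside 9.7% and 10% of the 11482 genes kept. Here no member passed through 1 column alone, and the 6 kept were all at 1 FPKM or more on both sides, where 7.12% of 10400 genes were at least 2-fold higher and 6.43% lower.

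At a limit of 8-fold, 6 members were higher in the day 6 knockdown (the 7 above without Cxcl1) and 0 lower, beside 4.73% and 3.25% of the genes kept. On day 8 they were 4 higher (Ccl7, Cxcl1, Cxcl5 and Cxcl12) and 0 lower, beside 0.995% and 1.73%. For USP10 there was 1 higher, Ccl2, and 0 lower, beside 2.08% and 2.57%, and on day 0 there were 0 in either direction, beside 0.487% and 0.166%. Of these, Ccl5 on day 6 and Cxcl5 on day 8 were counted against a control listed at 0, where the ratio depends on the value added. Further, Ccl2, Ccl5 and Cxcl5 on day 6 and Ccl7, Cxcl1 and Cxcl5 on day 8 passed the minimum through the knockdown column alone. This favours a count as higher. With 1 FPKM on both sides, the members at least 8-fold higher were Ccl7, Cxcl12 and Il15 on day 6, Cxcl12 on day 8 and Ccl2 for USP10. No share of all genes is given for this last rule.

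The control columns of the 2 day 6 tables give a measure of how far the same genes differ between untreated columns of the same day. Their headers point to the same control reads, yet their values differ, and the control of the USP10 table could not be tied to a library. Of the 11459 genes kept over this pair, 11.2% were at least 2-fold higher and 8.66% at least 2-fold lower in the control of the USP10 table. Of the 10 genes, 6 were at least 2-fold higher there and 1, Lif, was lower. The ratio was 2.62-fold for Ccl2, 4.84-fold for Ccl7, 13.8-fold for Cxcl1, 34.4-fold for Cxcl5, 11.6-fold for Cxcl12 and 2.52-fold for Il15. Thus the spread between control columns ran in the same direction as the difference between knockdown and control for each of these genes, and each day 6 value below has to be read beside it.

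**Figure D2:**
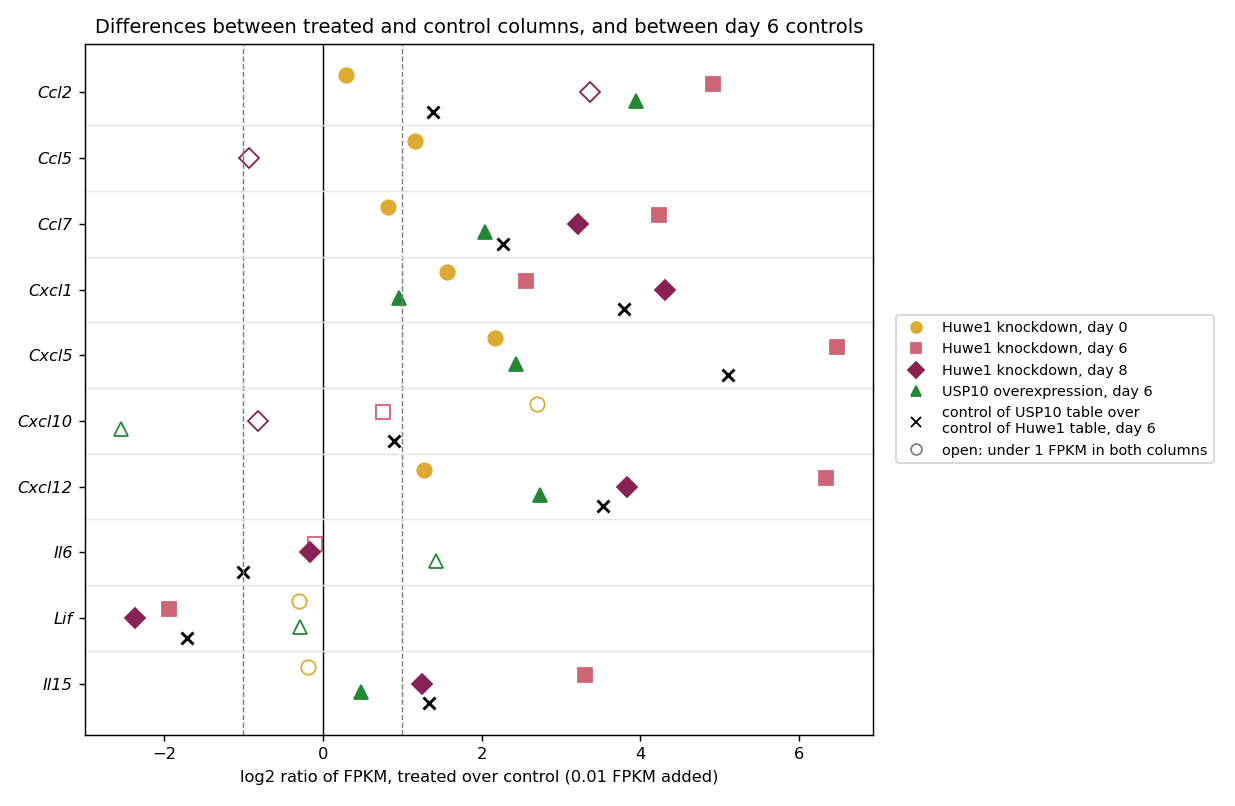
Log2 ratio of FPKM, treated over control with 0.01 FPKM added, for the 10 genes (rows) in the 4 comparisons (coloured points, open where both columns are under 1 FPKM), and of the control of the USP10 table over the control of the Huwe1 table on day 6 (crosses). Dashed lines mark 2-fold and genes listed at 0 in a column have no point. For Cxcl1 the cross lies to the right of the day 6 knockdown, and for Ccl2 and Il15 it lies well to the left.

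Ccl2 and Ccl7 are neighbours in a cluster of CC chemokine genes on chromosome 11 of build GRCm38, Ccl2 from 82035577 to 82037452 and Ccl7 from 82045712 to 82047523, each with 3 exons. Ccl2, a main attractant of monocytes, was at 14.3 FPKM in the day 0 control and 17.5 in the day 0 knockdown. On day 6 it was at 0.809 FPKM in the control, about 20 fragments, and 24.7 in the knockdown, and on day 8 at 0.0842 and 0.962. In the USP10 table it was at 2.14 FPKM in the control and 33.1 in the overexpressing line. Both treated columns of day 6 were therefore above the proliferating myoblasts, whereas both columns of day 8 were under 1 FPKM. The ratio was 1.22-fold on day 0, 30.1-fold on day 6 and 15.4-fold for USP10.

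Ccl7, which binds several CC receptors, was at 4.99 FPKM in control cells and 8.81 in the knockdown on day 0. It was at 2.92 and 55.2 FPKM on day 6, at 0.511 and 4.84 on day 8, and at 14.1 and 58.4 in the USP10 table. The 2 treated columns of day 6 held similar levels, and the control of the USP10 table lay between them and the control of the Huwe1 table. The ratio was 18.9-fold for the knockdown on day 6, 9.31-fold on day 8 and 4.12-fold for USP10.

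Ccl5, on chromosome 11 from 83525779 to 83530518, was low throughout. It was at 0.639 FPKM in control cells and 1.44 in the knockdown on day 0, listed at 0 and at 1.04 on day 6, at 0.155 and 0.0763 on day 8, and listed at 0 and at 0.101 in the USP10 table. Its values on day 8 and in the USP10 table amount to 1 fragment where the depth could be estimated, and no fold is given against a column listed at 0.

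The other genes of the Ccl2 cluster differed among themselves. Ccl8, another monocyte attractant whose start lies 79.6 kb from that of Ccl2, was at 2.28 FPKM in control cells and 61.7 in the knockdown on day 6, listed at 0 and at 13.2 on day 8, and at 1.90 and 40.3 in the USP10 table. Ccl11, the eosinophil attractant eotaxin, whose start lies between them, 22.3 kb from that of Ccl2, was lower in both treated columns of day 6, with 7.07 and 1.95 FPKM for the knockdown and 15.6 and 6.89 for USP10. On day 8 it was higher in the knockdown, with 1.28 FPKM in control cells and 9.67 in the knockdown. Ccl12 was listed at 0 in all 8 columns. High values of the treated columns were therefore not shared by all genes of this interval.

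**Figure D3:**
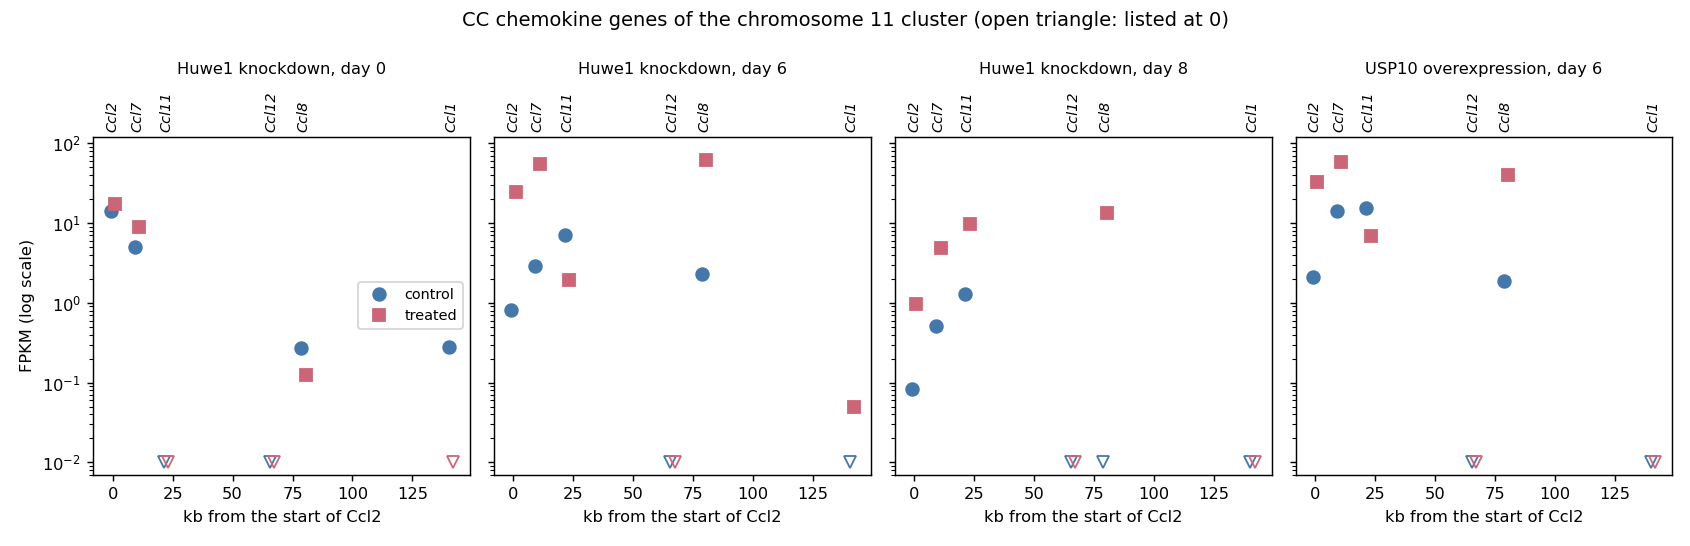
FPKM on a log scale of 6 CC chemokine genes of the chromosome 11 cluster, placed by the distance of their start from that of Ccl2 in kb, with 1 panel per comparison, controls as blue circles, treated columns as red squares and genes listed at 0 as open triangles. On day 6 Ccl2, Ccl7 and Ccl8 were higher and Ccl11 lower in the treated column, in both tables.

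Cxcl1 and Cxcl5, ligands of the neutrophil receptor Cxcr2, lie on chromosome 5, from 90891245 to 90893115 and from 90759298 to 90761625, each with 4 exons. Cxcl1 was at 3.65 FPKM in control cells and 10.8 in the knockdown on day 0, at 0.490 and 2.94 on day 6, at 0.544 and 11.01 on day 8, and at 6.90 and 13.5 in the USP10 table. The knockdown column was the higher on each day, by 2.96-fold, 5.89-fold and 19.9-fold. However, the day 6 knockdown value was below the control of the USP10 table, so that for Cxcl1 the difference between the day 6 controls was larger than that between knockdown and control. The ratio for USP10 was 1.95-fold.

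Cxcl5 was at 3.08 FPKM in control cells and 13.9 in the knockdown on day 0, the highest ratio of any kept member on that day, 4.50-fold, and the 10th highest of the 10447 genes that reached 1 FPKM on both sides. On day 6 it was at 0.0838 FPKM in the control, about 4 fragments, and at 8.36 in the knockdown. On day 8 it was listed at 0 in the control and at 2.96 in the knockdown, and in the USP10 table it was at 3.22 and 17.5, a ratio of 5.41-fold. All 4 treated columns were above all 4 control columns except that the day 8 knockdown lay just under the controls of day 0 and of the USP10 table.

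Cxcl12, the stromal ligand of Cxcr4, lies on chromosome 6 from 117168535 to 117181368. It was at 5.87 FPKM in control cells and 14.2 in the knockdown on day 0, at 1.25 and 101.8 on day 6, at 2.03 and 29.1 on day 8, and at 14.6 and 97.4 in the USP10 table. The knockdown was higher by 2.42-fold, 80.7-fold and 14.3-fold on the 3 days, and the USP10 line by 6.68-fold. Among genes that reached 1 FPKM on both sides its ratio was the 49th highest on day 0, the 4th highest on day 6, the 4th highest on day 8 and the 53rd highest for USP10. Its level in the day 6 knockdown was above all 4 control columns, the highest of which was the control of the USP10 table.

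Cxcl10 stayed between 0.0367 and 0.661 FPKM in all 8 columns and was kept in none of the comparisons. The controls and the USP10 library held between 1 and 8 fragments of it. The tables give it the locus of Art3, on chromosome 5 from 92331841 to 92414627, within which its own RefSeq gene runs from 92346638 to 92348889. Whether strand was used in counting is not given in the sources used here, and the low values of Cxcl10 are uncertain for this reason too. Its neighbours Cxcl9 and Cxcl11, also interferon-induced ligands of Cxcr3, did not exceed 0.225 and 0.0447 FPKM.

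**Figure D4:**
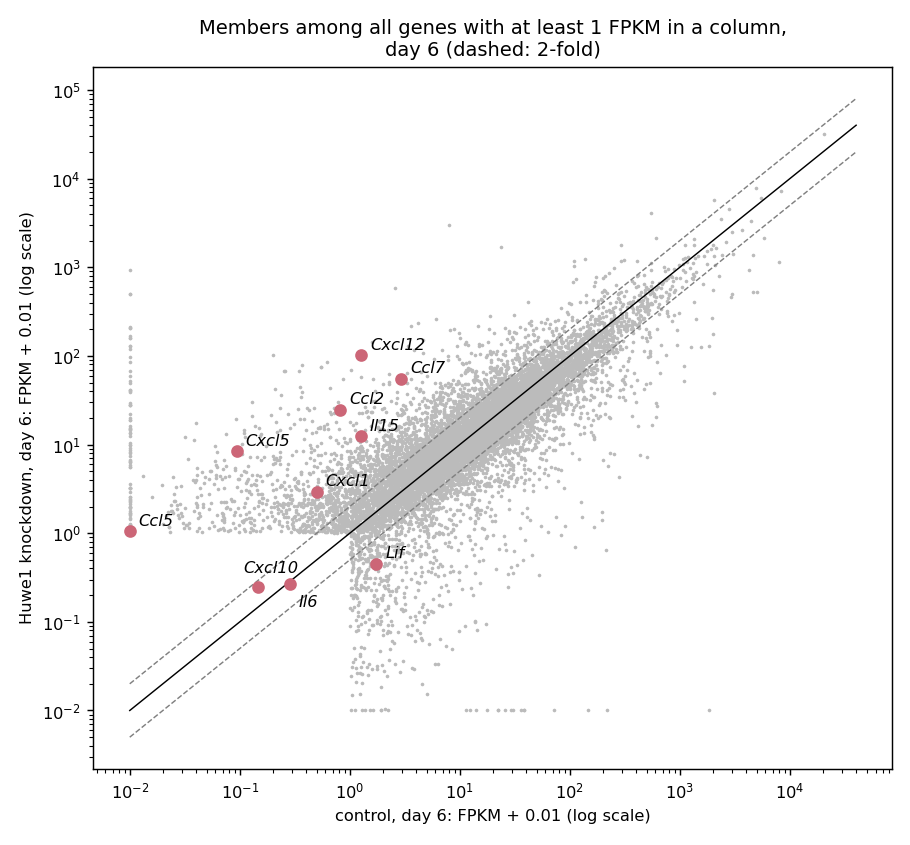
FPKM plus 0.01 on log scales of the 11695 genes that reached 1 FPKM in the day 6 control or Huwe1 knockdown (grey), with the 10 chemokine and cytokine genes in red, Cxcl10 and Il6 among them although both columns are under 1 FPKM. Solid and dashed lines mark equal values and 2-fold. Cxcl12, Ccl7, Ccl2, Il15 and Cxcl5 lie above the band of most genes, and Lif lies below.

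Promoters are given for 4 genes that contrast in these columns, Cxcl1 and Cxcl12 as chemokines that were higher in the knockdown, Cxcl10 as the one that stayed low, and Lif as the one that was lower. Each run holds the 250 bases before and the 50 bases after the start site, from RefSeq on GRCm38.p6, which gave a window for 5 of the 10 genes, Il6 among them. No window was matched for Ccl2, Ccl5, Ccl7, Cxcl5 and Il15. The sequences are written on the strand of the gene, at chr5:90890995-90891294 (plus strand) for Cxcl1, chr5:92348840-92349139 (minus strand) for Cxcl10, chr6:117168285-117168584 (plus strand) for Cxcl12 and chr11:4257318-4257617 (plus strand) for Lif. Capitals mark matches on either strand to the NF-kB consensus motif in Cxcl1, Cxcl10 and Lif, to the interferon-stimulated element GAAANNGAAA in Cxcl10 (the first run of capitals there), and to the GC box GGGCGG in Cxcl12.
Cxcl1: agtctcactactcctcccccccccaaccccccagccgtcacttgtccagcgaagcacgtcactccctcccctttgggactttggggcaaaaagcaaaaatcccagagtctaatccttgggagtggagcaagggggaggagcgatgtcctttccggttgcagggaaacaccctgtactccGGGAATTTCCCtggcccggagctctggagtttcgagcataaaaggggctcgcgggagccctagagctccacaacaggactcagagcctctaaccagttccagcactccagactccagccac
Cxcl10: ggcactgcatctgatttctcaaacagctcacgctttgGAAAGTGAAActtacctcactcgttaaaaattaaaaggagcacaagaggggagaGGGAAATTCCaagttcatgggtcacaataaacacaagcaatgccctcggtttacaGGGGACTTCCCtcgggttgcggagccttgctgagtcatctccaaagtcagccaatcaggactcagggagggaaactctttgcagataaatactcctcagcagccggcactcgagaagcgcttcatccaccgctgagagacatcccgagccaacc
Cxcl12: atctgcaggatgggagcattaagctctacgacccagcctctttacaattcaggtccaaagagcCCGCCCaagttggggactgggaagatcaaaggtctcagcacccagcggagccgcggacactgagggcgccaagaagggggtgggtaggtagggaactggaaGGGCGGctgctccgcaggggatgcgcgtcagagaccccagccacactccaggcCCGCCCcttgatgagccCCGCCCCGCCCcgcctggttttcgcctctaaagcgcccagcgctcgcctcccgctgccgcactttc
Lif: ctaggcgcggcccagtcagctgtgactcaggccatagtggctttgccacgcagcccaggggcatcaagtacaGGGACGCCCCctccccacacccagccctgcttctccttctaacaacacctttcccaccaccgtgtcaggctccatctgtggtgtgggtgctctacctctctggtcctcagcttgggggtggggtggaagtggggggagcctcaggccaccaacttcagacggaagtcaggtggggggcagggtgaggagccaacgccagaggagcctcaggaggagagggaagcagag

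Of 32851 windows of this length, 8.46% held the NF-kB motif, 3.44% the interferon-stimulated element, 35.7% the GC box and 13.6% the TATA box TATAAA, the 4 motifs searched. The Cxcl1 window held the NF-kB motif from 71 to 61 bases before the start, as overlapping matches on both strands. The Cxcl10 window held NF-kB matches from 159 to 150 and from 104 to 94 bases before the start, and the interferon-stimulated element from 213 to 204. The Lif window held 1 NF-kB match, read on both strands, from 178 to 169 bases before the start, and that of Il6 held 1 from 44 to 35. The Cxcl12 window held 5 GC boxes, of which 2 share a base, and no NF-kB match. None of the 5 windows held TATAAA. Genes with an NF-kB match were thus found among those that were higher, lower and near 0 in the knockdown, and a match describes letters in a window, not a bound site.

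Il6, on chromosome 5 from 30013161 to 30019968, was listed at 0 in the day 0 control and at 0.0898 FPKM in the knockdown. It was at 0.276 and 0.257 FPKM on day 6, at 1.38 and 1.23 on day 8, and at 0.132 and 0.372 in the USP10 table. Only the day 8 columns reached 1 FPKM, and there the log2 ratio was -0.16. Il6 therefore did not move like Ccl7, Cxcl1, Cxcl5 and Cxcl12, the chemokines counted as higher in the knockdown of day 8, by these single values. Of the other chemokines among the members, Ccl2 was higher and Ccl5 and Cxcl10 lower there, each under 1 FPKM in both columns.

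Lif, a gp130 cytokine released by muscle that acts on myoblasts, lies on chromosome 11 from 4257568 to 4272514. It was at 0.746 FPKM in control cells and 0.605 in the knockdown on day 0, at 1.73 and 0.444 on day 6, at 3.02 and 0.582 on day 8, and at 0.520 and 0.424 in the USP10 table. It was lower in the knockdown by 3.83-fold on day 6 and 5.13-fold on day 8, and was the only kept member at least 2-fold lower in any comparison. On both days Lif passed the minimum through the control column alone, which favours a count as lower. The control of the USP10 table was about as low as the day 6 knockdown, with a log2 ratio of -1.71 to the other day 6 control, where that of the knockdown was -1.94.

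Il15, a cytokine that sustains T cells and natural killer cells and is abundant in muscle, lies on chromosome 8 from 82331624 to 82402586. It was at 0.664 FPKM in control cells and 0.583 in the knockdown on day 0, at 1.25 and 12.4 on day 6, at 0.852 and 2.04 on day 8, and at 3.17 and 4.44 in the USP10 table. The day 6 knockdown stood apart from the other 7 columns, at 9.85-fold its control. The ratio was 2.37-fold on day 8 and 1.40-fold for USP10, and on day 0 the log2 ratio was -0.19.

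The order of the control levels over the days depended on which day 6 control was used. In the Huwe1 tables, the level in the day 6 control relative to the day 0 control was lower by a log2 ratio of -4.13 for Ccl2, -0.77 for Ccl7, -2.87 for Cxcl1, -5.04 for Cxcl5 and -2.22 for Cxcl12, and higher by 0.50 for Cxcl10, 1.20 for Lif and 0.90 for Il15. The day 6 control of the USP10 table went the other way for most of these, at 14.1 FPKM against 4.99 on day 0 for Ccl7, 6.90 against 3.65 for Cxcl1, 3.22 against 3.08 for Cxcl5, 14.6 against 5.87 for Cxcl12 and 0.520 against 0.746 for Lif. Both day 6 controls lay below day 0 for Ccl2, at 0.809 and 2.14 against 14.3 FPKM, and above it for Il15, at 1.25 and 3.17 against 0.664, and for Cxcl10, which stayed under 1 FPKM. For the day 8 control the log2 ratio to day 0 was -7.25 for Ccl2, -3.26 for Ccl7, -2.72 for Cxcl1 and -1.52 for Cxcl12, and 1.97 for Cxcl10, 2.00 for Lif and 0.35 for Il15. These ratios join separately normalized tables, and the day 8 control carried a non-targeting RNA while the others are labelled wild type. In the knockdown, Ccl2, Ccl7, Cxcl12 and Il15 were higher on day 6 than on days 0 and 8, while Cxcl1 was lowest on day 6. The day 8 knockdown was begun in myotubes and the others in myoblasts, so this order is not a time course.

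The receptors of these ligands were mostly near 0. Of 23 chemokine receptors, Cxcr2, Cxcr4, Ackr3 and Ackr4 reached 1 FPKM in a column, and Ccr2, the receptor of Ccl2 and Ccl7, did not. Cxcr4, which signals for Cxcl12, was at 0.390 FPKM in control cells and 0.223 in the knockdown on day 0, at 19.0 and 9.13 on day 6, at 37.2 and 61.2 on day 8, and at 21.1 and 3.84 in the USP10 table. Thus the receptor was lower in the treated columns of day 6, where its ligand was highest, by 2.08-fold for the knockdown and 5.47-fold for USP10. Ackr3, which binds and removes Cxcl12, was at 31.0 and 21.5 FPKM on day 0, at 8.11 and 45.6 on day 6, at 11.3 and 15.1 on day 8, and at 6.44 and 26.2 in the USP10 table, higher by 5.62-fold and 4.06-fold in the treated columns of day 6. Cxcr2, the receptor of Cxcl1 and Cxcl5, was at 3.31 and 3.89 FPKM on day 0 and between 0.928 and 1.77 elsewhere.

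Among the receptor chains of the 3 cytokines, Il6ra, the binding chain for Il6, was at 2.54 FPKM in control cells and 2.81 in the knockdown on day 0, at 1.17 and 7.68 on day 6, at 1.10 and 3.78 on day 8, and at 2.31 and 7.19 in the USP10 table. Il6st, which encodes gp130, was the most abundant of them, at 17.5 and 18.2 FPKM on day 0, 128.8 and 62.5 on day 6, 68.5 and 95.2 on day 8, and 128.4 and 92.4 in the USP10 table. Lifr was at 3.16 and 3.02 FPKM on day 0, at 3.98 and 14.2 on day 6, at 15.9 and 24.2 on day 8, and at 13.1 and 9.47 in the USP10 table. Il15ra stayed under 1 FPKM in all 8 columns. Il2rg, the common gamma chain, was at 9.80 and 4.43 FPKM on day 0, listed at 0 and at 1.25 on day 6, at 0.756 and 0.0177 on day 8, and at 0.249 and 0.887 in the USP10 table. Il2rb, the beta chain that Il15 shares with Il2, reached 1 FPKM only in the day 8 control, at 1.34, with 0.293 in the knockdown. Ligand and receptor levels of a pair therefore took no common direction over these columns.

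Of 31 other chemokine genes, 3 of 6 kept were at least 2-fold higher on day 6 (Ccl8, Ccl9 and Cxcl13) and 1 was lower, Ccl11. Cxcl13, which attracts B cells, was at 1.68 FPKM in the day 6 control and 30.8 in the knockdown, 24.3-fold higher in the USP10 line than in its control at 0.854 FPKM, and at 1.32 and 0.672 on day 8. Cxcl14 was at 4.75 FPKM in the control and 0.0203 in the USP10 line, and at 5.75 and 12.1 on day 8. Counts on the other tables were 1 higher and 0 lower of 3 kept on day 0, 3 and 0 of 6 on day 8, and 3 and 2 of 7 for USP10. Over all genes kept, 17.6% were higher and 13.4% lower on day 6, 1.9% and 1.69% on day 0, 7.89% and 10% on day 8, and 9.7% and 10% for USP10. The median log2 ratio of kept genes above 0 in both columns was 1.31 on day 6 for these chemokines, with 4.24 for the 7 members of that kind and -0.01 for all genes. The direction for these chemokines rested on Ccl9, at 0.185 and 1.55 FPKM, since with 1 FPKM required on both sides their median was -0.38 over 5 genes.

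Genes of the NF-kB pathway and its feedback differed in both directions. Of 20 such genes, 0 of 17 kept were at least 2-fold higher on day 0, 3 of 18 on day 6, 2 of 18 on day 8 and 2 of 17 for USP10, and the numbers at least 2-fold lower were 0, 3, 1 and 2. On day 6 the 3 higher and 3 lower genes stood beside 17.6% and 13.4% of all genes kept, so that the counts were near the background. The median log2 ratio of this list was 0.07, -0.21, 0.11 and 0.06, with a range on day 6 from -2.74 to 2.55. Nfkbia, the inhibitor that NF-kB induces, was at 6.60 FPKM in control cells and 38.6 in the knockdown on day 6, at 12.5 and 25.6 in the USP10 table, and at 14.7 and 14.0 on day 8. Cyld, a deubiquitinase that restrains the pathway, was at 27.3 FPKM in control cells and 10.96 in the knockdown on day 6. Tnfaip3, another induced inhibitor, was at 7.14 and 2.02 FPKM on day 8. Among 20 other inflammatory NF-kB targets, 3 of 9 kept were at least 2-fold higher on day 0, 3 of 8 on day 6, 3 of 7 on day 8 and 2 of 10 for USP10. The shares of all genes kept were 1.9%, 17.6%, 7.89% and 9.7%. The numbers at least 2-fold lower were 0, 0, 0 and 1, the last being Il1b, at 2.71 and 0.351 FPKM in the USP10 table. The higher targets included Ptgs2, the inducible prostaglandin synthase, at 9.14 and 44.1 FPKM on day 0. Another was Il33, an alarmin cytokine, at 1.97 and 6.68 FPKM on day 0, 2.60 and 29.3 on day 6 and 1.44 and 24.0 in the USP10 table. Csf1, the macrophage growth factor, was at 47.9 and 102.7 FPKM on day 0, 8.24 and 37.7 on day 6, 20.4 and 55.6 on day 8, and 113.4 and 78.1 in the USP10 table. Tnf and Il1a did not reach 1 FPKM in any column.

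Of 17 genes of JAK-STAT signalling and its feedback, the pathway below gp130 and the common gamma chain, 0 of 13 kept were at least 2-fold higher on day 0, 2 of 12 on day 6, 4 of 13 on day 8 and 1 of 12 for USP10, and 0, 1, 0 and 0 were lower. Socs3, the feedback inhibitor of gp130, was at 9.89 FPKM in control cells and 44.1 in the knockdown on day 8, at 5.48 and 6.75 on day 6, and at 8.30 and 5.49 in the USP10 table. Osmr, the oncostatin M receptor of the same family, was at 12.6 and 56.8 FPKM on day 8 and at 26.2 and 11.6 in the USP10 table. Of 15 inflammatory receptors, 1 of 14 kept was at least 2-fold higher on day 0, 5 of 14 on day 6, 3 of 14 on day 8 and 2 of 13 for USP10, and 0 were lower in each. Over all genes kept, the shares at least 2-fold higher were 1.9%, 17.6%, 7.89% and 9.7%, and those lower 1.69%, 13.4%, 10% and 10%.

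Interferon-response genes are given beside the chemokines as a description only. Of 32 such genes, none of which is a member, 0 of 12 kept were at least 2-fold higher on day 0, 27 of 28 on day 6, 2 of 13 on day 8 and 13 of 20 for USP10, and 0 were lower in each. With 1 FPKM required on both sides, the counts higher were 0 of 11, 9 of 10, 1 of 12 and 6 of 13. The shares of all genes under the same rule were 0.871%, 12.5%, 5.07% and 7.12%. The median log2 ratio of kept genes above 0 in both columns was -0.04, 3.74, 0.52 and 2.08, where that of the members was 1.22, 4.24, 2.23 and 2.24. Most interferon-response genes of day 6 were kept through the knockdown column alone, and with 1 FPKM on both sides the medians were -0.05, 1.89, 0.49 and 0.98, where those of the members were 1.27, 4.24, 1.84 and 2.24 over 5, 3, 2 and 6 genes. On day 6 Ifit2 was at 3.51 FPKM in control cells and 30.5 in the knockdown, Bst2 at 2.98 and 22.1, and Xaf1 at 1.37 and 14.5. The interferon gene Ifnb1 was listed at 0 in 7 columns and was at 0.0441 FPKM in the day 8 knockdown. Between the 2 controls of day 6, 3 of 13 interferon-response genes kept were at least 2-fold higher in the USP10 table and 0 were lower. The shares of all genes kept over this pair were 11.2% and 8.66%. On day 0 the chemokine counts were thus accompanied by 0 interferon-response genes, beside 1.9% of all genes kept. On day 8 there were 2 of 13, beside 7.89% of all genes kept, and 12 of the 13 ratios were above 0. On day 6 both groups were high, with Cxcl10 still under 1 FPKM, beside 17.6% of all genes kept for the knockdown and 9.7% for USP10.

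**Figure D5:**
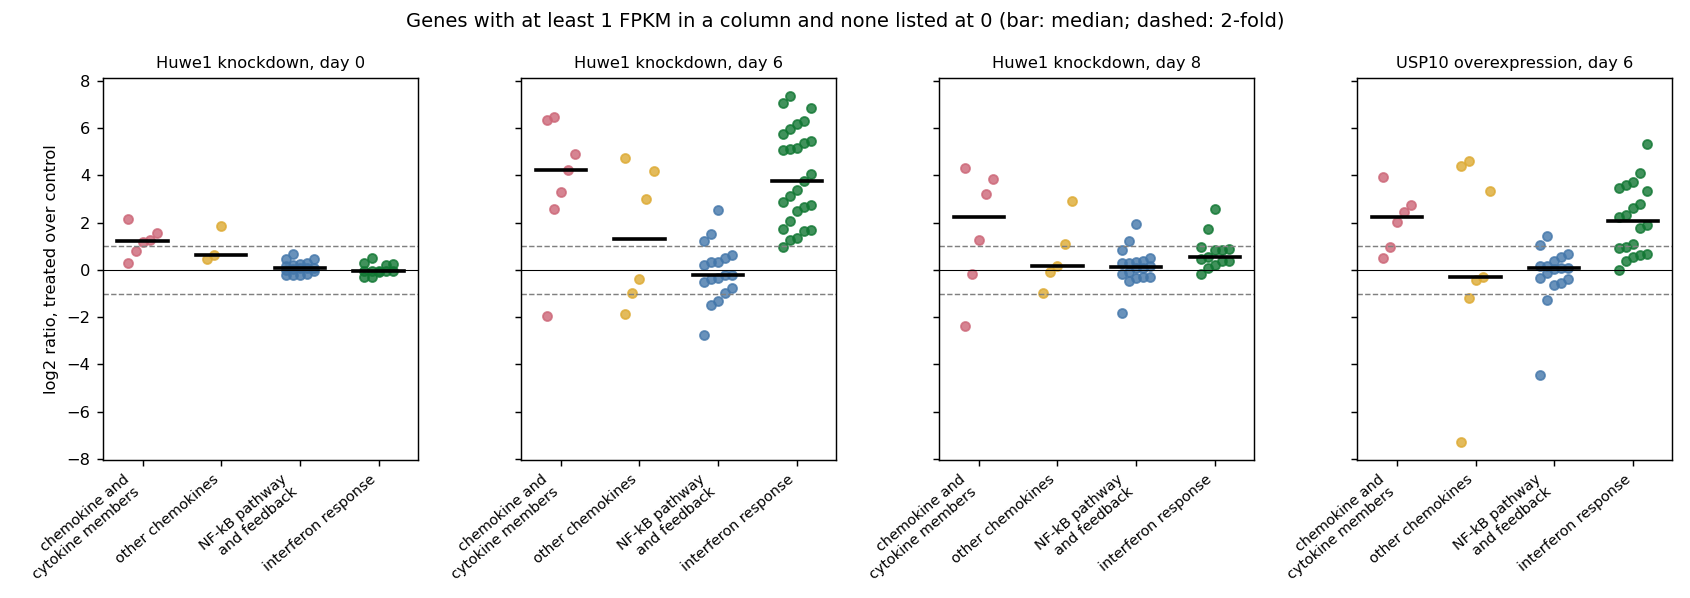
Log2 ratio of FPKM, treated over control, for the kept genes above 0 in both columns of 4 lists (the members, 31 other chemokines, 20 NF-kB pathway genes and 32 interferon-response genes), with 1 panel per comparison. Each point is a gene, bars are medians and dashed lines mark 2-fold. The median of the interferon list was 3.74 on day 6, or 1.89 with 1 FPKM required on both sides, and 0.52 on day 8, and that of the NF-kB list lay between -0.21 and 0.11 in all 4.

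Of 20 other myokines, 5 of 16 kept were at least 2-fold higher and 4 lower in the day 6 knockdown, 1 and 5 of 16 on day 8, 1 and 7 of 15 for USP10, and 3 and 0 of 13 on day 0. The shares of all genes kept were 17.6% and 13.4%, 7.89% and 10%, 9.7% and 10%, and 1.9% and 1.69%, in the same order. Fgf21, a metabolic hormone that stressed muscle releases, was at 437.6 FPKM in control cells and 7.58 in the knockdown on day 6, at 134.6 and 8.06 on day 8, and at 298.5 and 5.04 in the USP10 table. Angptl4, an inhibitor of lipoprotein lipase, was at 5.75 and 26.2 FPKM on day 6, at 7.58 and 35.6 on day 8, and at 19.1 and 71.0 in the USP10 table. Lif was on the side of Fgf21 and Il15 on that of Angptl4 in both knockdown columns of days 6 and 8.

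Over the 8 columns, the genes most like each member with at least 5 FPKM in a column were taken from 10236 genes by Pearson's r of log2(FPKM + 1). The columns are few and come from 1 cell line, so that r is a description. The 3 most like Cxcl12 were Tgfbr3, a coreceptor for TGF-beta (r = 0.98), Il6ra (0.98) and Ddx58, which encodes the RNA sensor RIG-I (0.96). Tgfbr3, for example, was at 2.90 and 6.49 FPKM on day 0, 1.86 and 18.0 on day 6, 2.76 and 7.92 on day 8, and 5.08 and 13.4 in the USP10 table. For Ccl7 they were Laptm4b (0.99), B2m, the light chain of class I histocompatibility molecules (0.97), and Rsbn1l (0.97). For Ccl2 they were Ppef1 (0.99), Dkk2 (0.98) and Csn3 (0.98). For Il15 they were Arhgap29 (0.98), Nupr1 (0.97) and Mrgpre (0.96), and for Cxcl5 Cyr61, Cd14 and Zfp53 (each 0.96). For Cxcl1 they were Maml1 (0.94), Mmgt2 (0.92) and Tmem131 (0.91). With 0.1 in place of 1 FPKM added, the same 3 genes were named for Cxcl12 and 0 of 3 for Ccl2. Among the members themselves, r was 0.80 between Ccl2 and Ccl7, 0.90 between Ccl7 and Cxcl12, 0.83 between Cxcl1 and Cxcl5, and 0.18 between Il15 and Cxcl1.

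Markers of other cell types were examined because leukocytes, endothelial cells and fibroblasts also make these chemokines. The 10 macrophage and leukocyte markers summed to 1.97 to 7.69 FPKM over the 8 columns, with Emr1 (Adgre1) at 0 in all 8 and Ptprc at 0 in 4. Their sum was higher in each treated column than in its control. Only Cd14 and Cd68 reached 1 FPKM in any column. Cd14 was at 3.62 and 5.37 FPKM on day 0 and at 0.777 and 4.74 on day 6. It was at 0.784 and 1.73 FPKM on day 8 and at 2.08 and 5.39 in the USP10 table. Cd68 was at 0.946 and 2.34 FPKM on day 8, but at 4.65 and 2.09 in the USP10 table. Of the 6 endothelial markers, Tie1 and Emcn were at 0 in both treated columns of day 6, while Cdh5 was at 13.5 FPKM in the day 0 control, and on day 6 at 0.0241 in the control, 6.83 in the knockdown and 6.81 in the USP10 line. The 7 fibroblast and mesenchymal markers summed to 124.7 FPKM in control cells and 4513 in the knockdown on day 6, to 510.5 and 4127 in the USP10 table, to 350.2 and 271.6 on day 0, and to 507.6 and 801.8 on day 8, and Thy1 was at 0 in 6 columns. Dcn, which encodes the matrix proteoglycan decorin, was at 7.94 FPKM in control cells and 2987 in the knockdown on day 6, at 50.3 and 3037 in the USP10 table, and at 4.19 and 8.75 on day 8. Ly6a of the same list was at 2.54 and 583.8 FPKM on day 6 and at 31.3 and 428.5 in the USP10 table, but at 13.9 and 4.28 on day 8, when Cd34, at 7.22 and 5.45, and Col1a1, at 69.1 and 65.4, were also below control. Dcn made up most of the mesenchymal sum in both treated columns of day 6. In the Huwe1 knockdown, of 6 markers kept, 6 were at least 2-fold higher and 0 lower on day 6, beside 17.6% and 13.4% of all genes kept. On day 8, 2 were higher and 1 lower, beside 7.89% and 10%, and on day 0, 1 and 0, beside 1.9% and 1.69%. For USP10, 3 of the 6 markers kept were at least 2-fold higher and 0 lower, beside 9.7% and 10% of all genes kept. Pdgfra, Col1a1 and Col3a1 were higher by only 1.35-fold, 1.62-fold and 1.38-fold there. The 8 muscle markers summed to 12783 and 2769 FPKM on day 6, 6085 and 3246 in the USP10 table, and 10723 and 2610 on day 8. Their sum on day 0 was 374.5 FPKM in control cells and 191.8 in the knockdown. On day 0 the mesenchymal and muscle sums were both lower in the knockdown, while the chemokine sum was higher. On day 6 the mesenchymal sum moved in the same direction as the chemokine sum and the muscle sum in the opposite direction. This held between the 2 day 6 controls too, and the part of these cell states in the result was not tested. In such bulk samples, fewer cells of a type and less RNA per cell cannot be told apart.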

How the data were processed

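The authors captured mRNA with oligo(dT), built directional ScriptSeq v2 libraries for an Illumina HiSeq, mapped reads with Tophat and compared conditions with Cuffdiff. The submitters' processing notes name Bowtie2, Cuffdiff and mm10, and their versions and the annotation are not given in the sources used here. The values deposited by the authors are FPKM, with 1 column per condition. The log2 fold changes, test scores, p-values and q-values of the authors' own comparisons, which the tables also hold, were not used.

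Log2 ratios of treated to control were computed with a pseudocount of 0.01 FPKM, a scale on which low genes appear to differ less than they do, for genes that reached 1 FPKM in either column. With 1 value per condition no test was run, and 2-fold was the limit for a count. Depth was estimated from the lowest FPKM steps of genes with 1 RefSeq transcript of at least 1500 bases. The computations were tested on simulated data. The alternatives were pseudocounts of 0.1 and 1 FPKM, no minimum, a minimum of 5 FPKM or of 1 FPKM on both sides, completed Cuffdiff estimates only, centring on the median gene and an 8-fold limit. Scripts ran in Python 3.11.15 with pandas 2.3.3 and numpy 2.4.6, and plots were drawn with matplotlib 3.10.9.

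The genes and the lists were chosen with earlier results of these data known, and the motifs after the sequences had been seen. Named were the 10 members, Huwe1 and Usp10, up to 3 genes per list and comparison with the largest ratio among genes that reached 1 FPKM on both sides and 5 FPKM on 1, receptors of members with at least 1 FPKM, and the 3 genes most correlated with each member. Some genes that this rule allows are not reported here. Genes named outside this rule (Ccl9, Ccl12, Cxcl9, Cxcl11, Ccr2, Il15ra, Tnf, Il1a, Il1b, Ifnb1, Art3, Cd68, Col1a1 and the markers at 0) were chosen after their values were seen.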

Additional observations from a re-analysis of the deposited data

Results flagged for a closer look

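Ccl11, the eosinophil attractant next to Ccl7, was flagged among the members and other chemokines. Only for Ccl11 was the Huwe1 knockdown at least 2-fold higher on 1 day and at least 2-fold lower on another. This counts only days on which the gene reached 1 FPKM in a column. The log2 ratio of Ccl11 was -1.85 for the Huwe1 knockdown on day 6 and 2.90 on day 8. The difference between the days was not tested, since each rests on 1 value per condition. The control was at 7.07 FPKM on day 6 and 1.28 on day 8, in separately normalized tables and with hairpins that differ between the days. Cxcl14 had the same directions and was left out by the minimum alone, at 0.994 FPKM in the day 6 control and 0.0275 in the knockdown. It was 2.11-fold higher in the day 8 knockdown, and on day 6 it was also lower in the USP10 line.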

How the results depend on the processing

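No paired analysis was possible because the tables hold 1 pooled value per condition, and single replicates could not be left out for the same reason. Of 64 alternative counts of members, 51 were within 1.5 times the reported count and 13 were not. Of 108 member ratios, 20 moved by more than 1.5 times, each of those 20 with another pseudocount, and 0 changed sign. A pseudocount added to both values cannot change the sign of a ratio. Centring shifted log2 ratios by at most 0.05, so the absence of sign changes is no check of direction. With an 8-fold limit, members higher in the knockdown were 0 on day 0 and 1 for USP10, where the 2-fold counts were 4 and 4, and members lower were 0 on days 6 and 8 in place of 1. With at least 1 FPKM in both columns, members higher were 3 on day 6 and 1 on day 8 in place of 7 and 5, and members lower were 0 on both days. A minimum of 5 FPKM gave 2 higher and 0 lower on day 8 and 0 lower on day 6, a pseudocount of 1 FPKM gave 0 lower on day 6, and no minimum gave 1 lower for USP10 in place of 0. Fewer genes are kept under the stricter minimums by construction. Over all genes, the counts higher and lower were 207 and 184 on day 0, 2061 and 1571 on day 6, 928 and 1180 on day 8, and 1114 and 1153 for USP10. They were 1710 and 953, 3937 and 3141, 2408 and 3640, and 2983 and 2880 with no minimum, 117 and 90, 1357 higher, 502 and 771, and 740 and 658 with a minimum of 5 FPKM, and 91 and 106, 1284 higher, 544 and 783, and 741 and 669 with 1 FPKM in both columns. With an 8-fold limit they were 53 and 18, 553 and 380, 117 and 203, and 239 and 295. A pseudocount of 1 FPKM gave 124 and 88 on day 0 and 545 higher on day 8. At the estimated depths a control value of Cxcl5 on day 6 rests on about 4 fragments and one of Ccl2 on day 8 on 1.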
